A study of Mus musculus with 6 samples.

Results

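The enzymes that build cholesterol and fatty acids were examined in aortic smooth muscle cells. They were 31 genes chosen by pathway place, with earlier results of these data known, and matched by symbol in a table of 20199 genes. All 31 were found and all 31 passed the filter on low counts, which kept 15185 genes. Of them, 19 act in the mevalonate and sterol branch and 12 in the fatty acid branch. The samples were 3 libraries labelled WT/mTmG/ Myh11ERT2 and 3 labelled miR-21fl/flmTmG/Myh11ERT2, from C57B6 mice aged 12 weeks, called wild type and knockout here. Both genotypes thus carried mTmG (a reporter that changes its fluorescent protein after Cre acts) and Myh11ERT2, by its name an inducible recombinase placed under the smooth muscle myosin heavy chain gene. The label of the floxed samples also reads miR21 -/-, but whether and how recombination was induced, and whether each library came from its own animal, was not stated in the labels. P-values therefore measure only the spread between these libraries, part of which may be technical.

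Cells make cholesterol from acetyl-CoA through mevalonate, then isoprenoid units, squalene and lanosterol, and they make fatty acids from the same acetyl-CoA by carboxylation, chain building, elongation and desaturation. The transcription factor SREBP2, encoded by Srebf2, is known to drive the genes of the sterol branch when membrane sterol is low, and SREBP1, encoded by Srebf1, is known to act more on fatty acid genes. In the vessel wall, the sterol content of smooth muscle cells is of interest because these cells can take up lipid in atherosclerosis.

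Library totals lay between 17123748 and 28610649 counts. Wild-type replicate 1 stood apart on the principal component that held 40.6% of the variance, at −58.1 against 1.53 to 27.3 elsewhere. All 8 smooth muscle markers had counts in every library, led by the actin gene Acta2 at 19401 to 25310 CPM (counts scaled to library size with TMM factors). Wild-type replicate 1 had the highest Acta2 but the lowest Myh11, smooth muscle myosin, at 6560 CPM against 9142 to 11026 CPM elsewhere. Cnn1, calponin, was lower in knockout without overlap, at 2828 to 3698 CPM in wild type and 2512 to 2680 CPM in the knockouts. Its log2 fold change was −0.32 (unadjusted p = 0.0459 in edgeR). Mylk was higher in knockout without overlap, at 1648 to 1867 CPM in wild type and 1964 to 2026 CPM in the knockouts. Its log2 fold change was 0.20 (unadjusted p = 0.122 in edgeR). Of the 8 markers, 6 had a lower and 2 a higher fitted mean in knockout. The part of these differences in the enzyme results was not tested. The microRNA itself was not analysed here, so no measurement of the deleted gene stands behind the genotype names. Its mature strand is shown because it defines the genotype; capitals mark the seed, bases 2 to 8 (RefSeq, GRCm38.p6, minus strand, chr11:86584120-86584141).
mmu-miR-21a-5p: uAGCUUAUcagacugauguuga

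Along the mevalonate and sterol branch, most enzymes had a lower mean in the knockout, and along the fatty acid branch they did not lean clearly either way. A lower fitted mean in knockout was found for 24 of 31 members, where 50.1% of all genes tested had one. The 24 were made up of 17 of 19 in the sterol branch, with a median log2 fold change of −0.34, and 7 of 12 in the fatty acid branch, with a median of −0.07. Over all genes the median was −0.00. In edgeR's quasi-likelihood test with Benjamini-Hochberg adjustment over all genes, 0 of 31 members and 0% of all genes passed 0.05, and limma voom also called 0 members. At an unadjusted p under 0.05 edgeR listed 9 of 31 members as lower, against 3.44% of all genes, and 0 as higher, against 2.85%. These 9 were Hmgcs1, Mvk, Pmvk, Idi1, Fdps, Sqle, Cyp51, Msmo1 and Hsd17b7. The deposited counts of Hmgcs1, Idi1, Fdps and Cyp51 were fractional in some library, so their reads may have been shared with other sequences. Those of Mvk, Pmvk, Sqle, Msmo1 and Hsd17b7 were not fractional. The groups did not overlap for 11 members that were lower in knockout, against 7.57% of all genes, and for 0 that were higher, against 6.95%. DESeq2 called 4 members, all fallen, namely Sqle, Fdps, Idi1 and Hsd17b7, where it called 0.294% of all genes as fallen.

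When only library totals were used for scaling, the median of all genes moved by 0.04 and the listing over all genes at an unadjusted p under 0.05 turned from 433 higher and 522 lower to 643 higher and 376 lower. In that fit 8 members were listed as lower and 22 had a lower fitted mean. The number of listed members depended on wild-type replicate 1: without it, edgeR listed 16 members as lower at an unadjusted p under 0.05, against 3.77% of all genes, 19 members did not overlap, against 12.5% of all genes with 1 library fewer, and Sqle passed over all genes (log2 fold change −1.04, adjusted p = 0.0110). The DESeq2 calls depended on wild-type replicate 3 and on each knockout library. Without wild-type replicate 3 or knockout replicate 3, DESeq2 called 0 members, without knockout replicate 1 or 2 it called 1, and without wild-type replicate 1 it called 7. The share of all genes called in these fits was not examined. Their log2 fold changes ran from −1.04 to −0.77 for Sqle and from −0.86 to −0.64 for Fdps. For Idi1 they ran from −1.17 to −0.69 and for Hsd17b7 from −1.38 to −0.97.

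**Figure D1:**
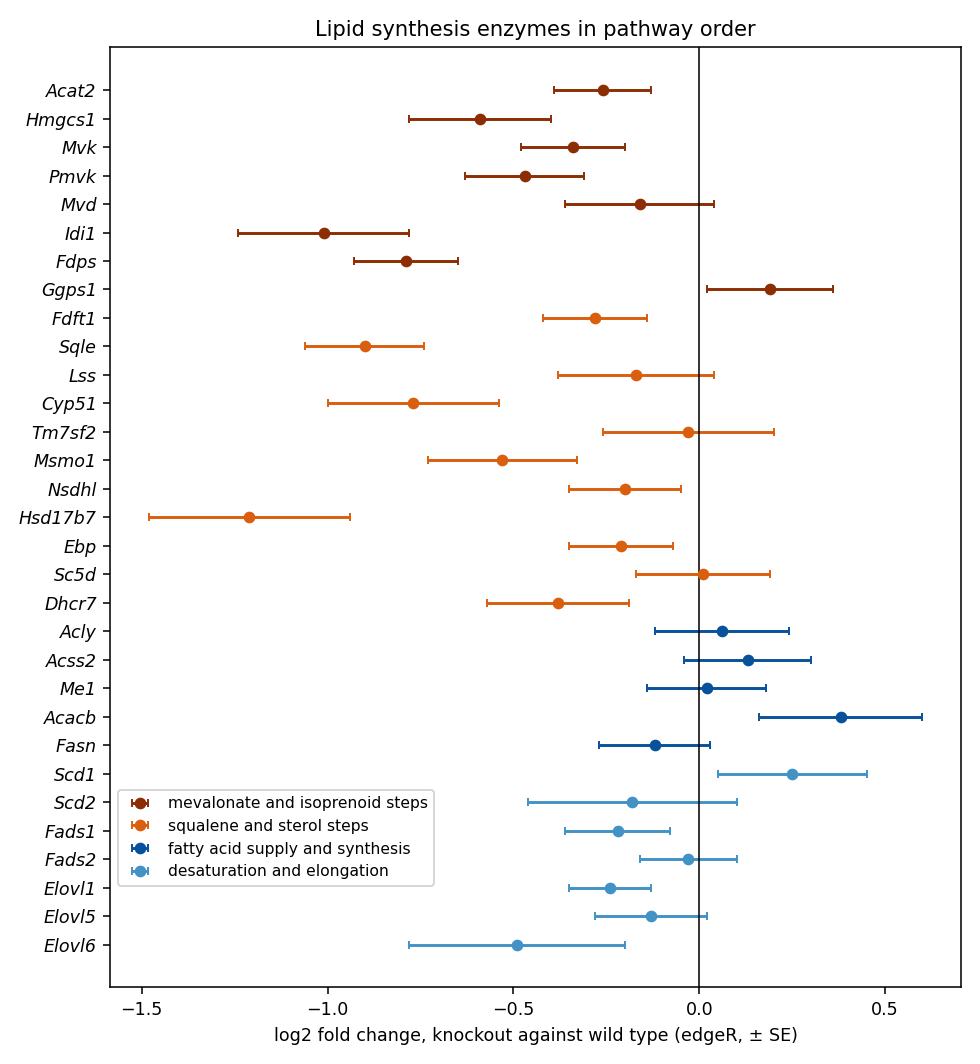
Log2 fold change of knockout against wild type for each of the 31 enzyme genes, from edgeR, in pathway order from top to bottom; bars are 1 standard error and colours mark the steps. Hsd17b7 (−1.21) and Idi1 (−1.01) lie farthest to the left, Acacb (0.38) and Scd1 (0.25) farthest to the right.

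The entry to the mevalonate branch was moderately lower in knockout. Acat2, the cytosolic thiolase that joins acetyl-CoA units, was at 26.1, 23.2 and 27.0 CPM in wild type, in the order of replicates 1 to 3 used throughout, and at 19.2, 21.4 and 23.2 CPM in the knockouts. Its groups touched, since wild-type replicate 2 and knockout replicate 3 were level, and the log2 fold change was −0.26 ± 0.13 SE. Hmgcs1, the synthase that makes HMG-CoA, lies on chromosome 13 from 119690379 to 119708260. It was at 54.3, 69.7 and 94.4 CPM in wild type and at 45.3, 49.0 and 51.2 CPM in the knockouts. Every knockout library was below every wild-type library, but wild-type replicate 3 was far above the other wild-type libraries. The log2 fold change of Hmgcs1 was −0.59 ± 0.19 SE (edgeR adjusted p = 0.719), and −0.36 without wild-type replicate 3.

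The kinases that follow were also lower in each knockout library than in any wild-type library. Mvk, mevalonate kinase, was at 12.8, 13.1 and 12.3 CPM in wild type and at 9.05, 10.2 and 10.9 CPM in the knockouts. Pmvk, phosphomevalonate kinase, was at 18.9, 15.3 and 16.2 CPM in wild type and at 11.6, 10.7 and 13.9 CPM in the knockouts. The log2 fold change was −0.34 ± 0.14 SE for Mvk and −0.47 ± 0.16 SE for Pmvk. Mvd, the decarboxylase that completes the isoprenoid unit, overlapped between the groups (4.69 ± 0.532 CPM among wild types and 4.19 ± 0.476 CPM among knockouts, SD, n = 3). Mvd lies wholly inside Gm20388, a gene of the opposite strand with a mean of 4334 counts against 98.5 for Mvd, and strandedness is not given, so its count is uncertain.

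The isomerase and the prenyl synthase at the end of the mevalonate steps had the widest gaps of this stretch. Idi1, isopentenyl diphosphate isomerase (chromosome 13, 8885501 to 8892451), was at 26.0, 22.8 and 41.6 CPM in wild type and at 12.8, 15.9 and 16.1 CPM in the knockouts. The log2 fold change was −1.01 ± 0.23 SE (edgeR adjusted p = 0.489; DESeq2 adjusted p = 0.0159), and without wild-type replicate 3, whose value was the highest, it was −0.71. Fdps, farnesyl diphosphate synthase (chromosome 3, 89093588 to 89101959), was at 29.1, 29.2 and 37.9 CPM in wild type. In knockout it was at 18.3, 18.6 and 18.8 CPM, so the 3 knockout libraries were nearly level and all lay below wild type. Its log2 fold change was −0.79 ± 0.14 SE (edgeR adjusted p = 0.398; DESeq2 adjusted p = 0.00477), which put it 11th of all genes by p in edgeR. The 2-sided exact permutation test of log2 CPM gave p = 0.1 for Idi1 and for Fdps, the smallest p that 3 against 3 allows.

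Ggps1, which takes farnesyl diphosphate out of the sterol line to make geranylgeranyl diphosphate for protein prenylation, did not share that pattern. It was at 36.7, 50.5 and 56.2 CPM in wild type and at 49.2, 54.2 and 60.05 CPM in the knockouts (log2 fold change 0.19 ± 0.17 SE), and the groups overlapped. Leaving out wild-type replicate 1 brought Ggps1 to 0.030, and leaving out wild-type replicate 3 to 0.318. Its span overlaps that of Arid4b on the other strand by 257 bases.

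Squalene synthesis and oxidation followed. Fdft1, squalene synthase, was at 22.6, 29.1 and 31.2 CPM in wild type and at 21.9, 23.1 and 23.4 CPM in the knockouts (log2 fold change −0.28 ± 0.14 SE). The groups overlapped, because wild-type replicate 1 was below 2 of the knockouts. Its span overlaps 774 bases of Ctsb, an abundant gene of the other strand. Sqle, squalene epoxidase (chromosome 15, 59315077 to 59331192), was at 34.9, 45.0 and 50.4 CPM in wild type and at 23.1, 25.1 and 21.7 CPM in the knockouts. The lowest wild-type library was above the highest knockout library, and the fitted knockout level was 53.5% of wild type. The log2 fold change was −0.90 ± 0.16 SE, with the smallest p of all members in edgeR (adjusted p = 0.398, 9th of all genes) and in DESeq2 (adjusted p = 0.00128). Leaving out any 1 library kept Sqle between −1.04 and −0.78.

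Lss, lanosterol synthase, which closes the rings, overlapped between the groups at 12.7, 19.98 and 23.1 CPM in wild type and 16.3, 15.4 and 18.1 CPM in the knockouts (−0.17 ± 0.21 SE on the log2 scale). Wild-type replicate 1 was the lowest of the 6 and wild-type replicate 3 the highest. Sqle exceeded Lss per transcript length by 3.69 to 4.66 times in the wild-type libraries and by 2.04 to 2.74 times in the knockout libraries, so the ratio of these neighbouring steps did not overlap between genotypes.

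**Figure D2:**
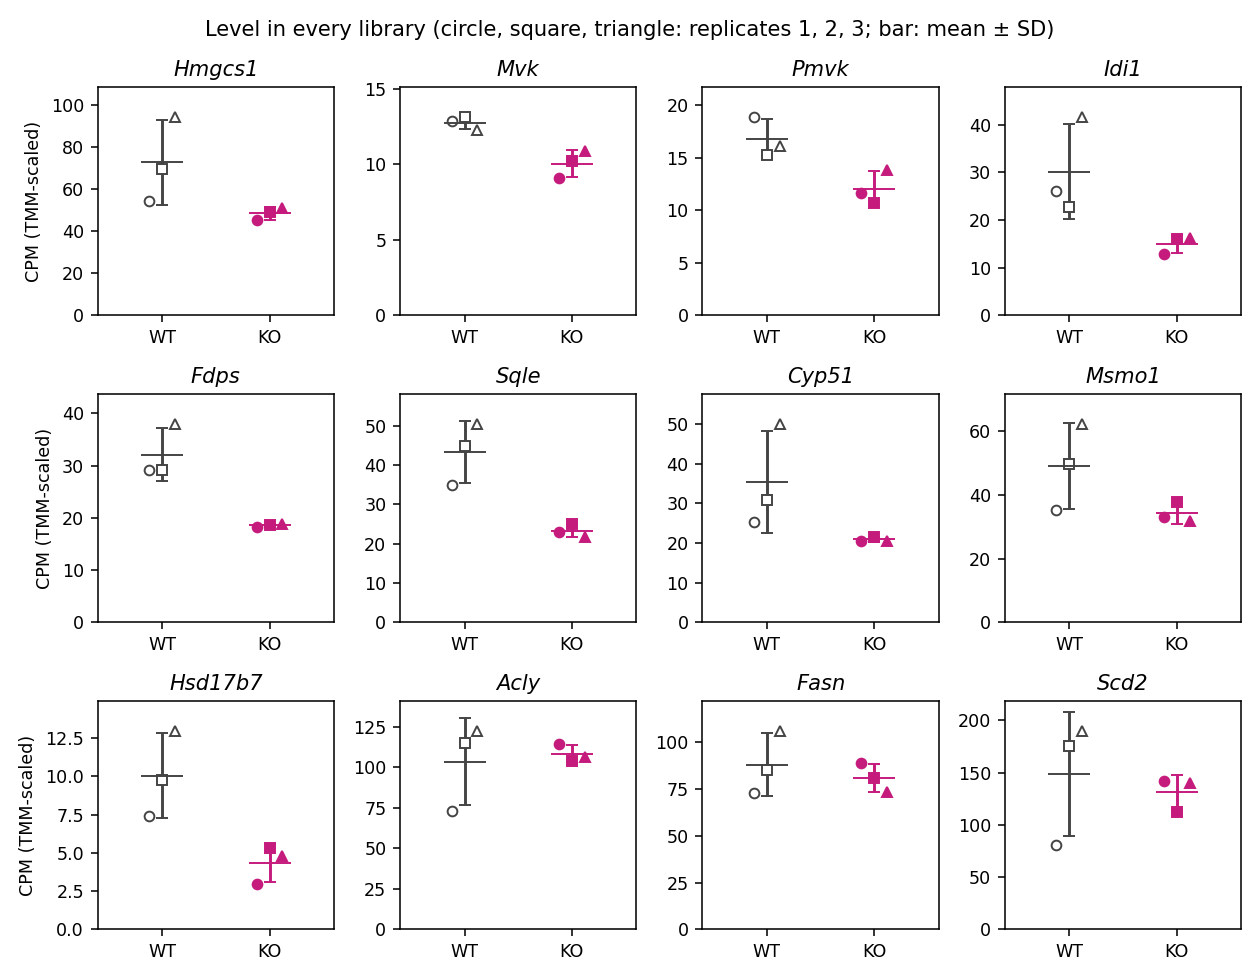
TMM-scaled CPM of 12 enzyme genes in each library, with open marks for wild type and filled marks for knockout, bars giving mean ± SD of 3 libraries, and each axis starting at 0. Idi1, Fdps, Sqle, Cyp51 and Hsd17b7 lie apart between the genotypes, whereas Acly, Fasn and Scd2 overlap.

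Among the enzymes that trim lanosterol to cholesterol, some were much lower in knockout and others level. Cyp51, lanosterol demethylase (chromosome 5, 4081145 to 4104746), was at 25.4, 30.9 and 49.95 CPM in wild type and at 20.5, 21.6 and 20.6 CPM in the knockouts. The groups did not overlap (log2 fold change −0.77 ± 0.23 SE, edgeR adjusted p = 0.668), but the value was −0.43 without wild-type replicate 3. The span of Cyp51 overlaps that of Akap9 on the other strand by 166 bases. Msmo1, the sterol methyl oxidase, was at 35.3, 49.7 and 62.2 CPM in wild type and at 32.9, 37.9 and 31.7 CPM in the knockouts. Knockout replicate 2 was above wild-type replicate 1, and the log2 fold change went from −0.53 ± 0.20 SE to −0.32 without wild-type replicate 3.

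Hsd17b7, the keto reductase of the demethylation cycle, had the lowest log2 fold change of all members. It lies on chromosome 1 from 169949535 to 169969241 and was at 7.43, 9.76 and 13.0 CPM in wild type and at 2.96, 5.30 and 4.77 CPM in the knockouts. Its counts ran from 125 to 370 in wild type and from 52 to 134 in the knockouts. The log2 fold change was −1.21 ± 0.27 SE (edgeR adjusted p = 0.489; DESeq2 adjusted p = 0.0199), and between −1.38 and −0.98 when any 1 library was left out. Its partner Nsdhl, the sterol decarboxylating dehydrogenase, differed little in size but did not overlap, at 8.50, 8.70 and 9.28 CPM in wild type and 7.91, 7.77 and 7.44 CPM in the knockouts (−0.20 ± 0.15 SE).

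The other enzymes of the sterol steps lay between −0.38 and 0.01 on the log2 scale. Dhcr7, which reduces the final sterol intermediate, was at 6.84, 8.59 and 9.94 CPM in wild type and at 6.49, 5.70 and 7.37 CPM in the knockouts (log2 fold change −0.38 ± 0.19 SE), with wild-type replicate 1 among the knockout values. Ebp, the sterol isomerase, averaged 19.6 ± 2.74 CPM among wild types and 16.9 ± 1.02 CPM among knockouts (SD, n = 3; −0.21 ± 0.14 SE). Tm7sf2, a sterol reductase, was at −0.03 ± 0.23 SE and Sc5d, the sterol desaturase, at 0.01 ± 0.18 SE, and the groups of both overlapped. Tm7sf2 and Sc5d changed sign when single libraries were left out, over −0.21 to 0.12 and −0.15 to 0.18. The span of Tm7sf2 overlaps that of Vps51 on the same strand by 532 bases. Vps51 had a mean of 914 counts against 188 for Tm7sf2, whose deposited counts were fractional, so its count is uncertain.

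In the promoters of these genes, letters known from SREBP-driven promoters were searched on both strands in the 250 bases before each RefSeq start (GRCm38.p6). Windows were matched by symbol for 25 of 31 members, which had 30 windows, since some genes had more than 1. A gene was counted when any of its windows held the motif. Sqle and Fdps, which DESeq2 called, and Fdft1, Scd1, Scd2 and Fads1 had no matched window and are not in these counts. TCACNCCAC, a form of the sterol element, was found in 1 of 25 members, Hmgcs1, and in 1.25% of the tested genes with a window. CACGTG, the E box, was found in 4 of 25 members (16%), namely Hsd17b7, Dhcr7, Sc5d and Elovl5, and in 9.97% of tested genes. In Dhcr7 it lay in only 1 of its windows, which begins inside the deposited gene span. By window the shares were 13.3% for members and 8.3% for tested genes. CCAAT, the box that binds NF-Y, was found in 15 of 16 sterol branch members and 6 of 9 fatty acid members, where 40.5% of tested genes held it. GGGCGG, the GC box, was found in 14 of 16 and 5 of 9, against 64.2% of tested genes. These matches describe the letters of the windows and no binding was measured. None of the motifs contains another.

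Printed are the parts of the windows that lie outside annotated protein-coding genes for Hmgcs1, the holder of the sterol element, for Hsd17b7 and Mvk, whose groups did not overlap, and for Acly, a fatty acid branch gene whose groups did; capitals mark matches of the searched motifs on either strand.
Hmgcs1, chr13:119690101-119690350, plus strand: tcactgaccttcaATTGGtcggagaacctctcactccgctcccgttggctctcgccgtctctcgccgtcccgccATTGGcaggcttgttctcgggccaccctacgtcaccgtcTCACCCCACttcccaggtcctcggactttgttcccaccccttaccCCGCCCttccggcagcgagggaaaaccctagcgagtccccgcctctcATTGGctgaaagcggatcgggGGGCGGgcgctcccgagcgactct
Hsd17b7, chr1:169969243-169969455, minus strand: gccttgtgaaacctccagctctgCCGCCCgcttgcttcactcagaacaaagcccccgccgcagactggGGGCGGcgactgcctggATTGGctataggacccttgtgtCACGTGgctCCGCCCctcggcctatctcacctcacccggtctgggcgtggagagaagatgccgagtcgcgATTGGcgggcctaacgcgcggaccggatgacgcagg
Mvk, chr5:114444062-114444268, plus strand: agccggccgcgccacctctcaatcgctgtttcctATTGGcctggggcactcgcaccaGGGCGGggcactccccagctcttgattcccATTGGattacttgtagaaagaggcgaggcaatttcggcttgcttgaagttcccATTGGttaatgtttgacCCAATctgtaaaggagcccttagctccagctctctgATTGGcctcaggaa
Acly, chr11:100528002-100528250, minus strand: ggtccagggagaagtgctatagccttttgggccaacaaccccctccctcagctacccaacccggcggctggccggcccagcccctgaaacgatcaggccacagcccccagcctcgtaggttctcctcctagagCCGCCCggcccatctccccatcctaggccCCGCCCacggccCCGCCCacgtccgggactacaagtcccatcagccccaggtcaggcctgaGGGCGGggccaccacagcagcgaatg

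In the Hmgcs1 window the sterol element began 137 bases before the start, between CCAAT boxes at 176 and 45 bases. The Hsd17b7 window held its E box at 143 bases, and the Mvk window held 5 CCAAT boxes between 173 and 14 bases before the start. The Acly window held no CCAAT box and 4 GC boxes. Of the 9 fatty acid members with a window, 6 held a CCAAT box, where 40.5% of tested genes did. In Me1 and Acacb it lay only in a window inside the deposited gene span, past the outer start.

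The seed match of miR-21a-5p was searched in the 3′ UTRs of the enzymes. ATAAGCT, or TAAGCTA, a shifted match that shares 6 of its letters, occurred in the longest annotated 3′ UTR of 2 of 29 members with such a sequence (6.90%), where 11.9% of 11144 tested genes held a match. The members were Sc5d, which was level between the genotypes, and Elovl6 (log2 fold change −0.49). The first site of Sc5d is shown with the seed match in capitals; it comes from mouse transcripts of another build and carries no coordinates.
Sc5d site: gatagaaaATAAGCTactcaaga

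Srebf2 was called as fallen in knockout by DESeq2 in the fit of all 6 libraries, whereas edgeR did not call it. Fits with a library left out were not examined for Srebf2. It was at 190, 198 and 196 CPM in wild type and at 128.6, 133 and 132 CPM in the knockouts (log2 fold change −0.57 ± 0.10 SE; edgeR adjusted p = 0.398; DESeq2 adjusted p = 9.07e-04). Srebf1 was at 104, 128.6 and 122 CPM in wild type and at 121, 110 and 125 CPM in the knockouts (0.00 ± 0.12 SE), with the groups overlapping. Of the 6 genes listed as SREBP factors and processing proteins, Srebf2 was the 1 member at an unadjusted p under 0.05 in edgeR, and the other members, Scap, Mbtps1, Mbtps2 and Insig2 among them, lay between −0.02 and 0.17.

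Within wild type, Srebf2 was nearly level while the sterol enzymes were not. The sterol branch score, the mean over its 19 genes of log2 CPM minus each gene's mean, was 0.03, 0.14 and 0.43 in the wild types, in replicate order, and −0.27, −0.19 and −0.14 in the knockouts. For Srebf2 the same quantity was 0.25, 0.31 and 0.29 in wild type and −0.31, −0.26 and −0.27 in knockout. Wild-type replicate 3 was above the gene's mean for 19 of 19 sterol branch members and was the highest of the 6 libraries for 13 of them (68.4%), where it was the highest for 12.9% of all genes tested. The fatty acid branch score was −0.28, 0.20 and 0.12 in wild type and 0.06, −0.10 and −0.00 in knockout, so the genotypes overlapped.

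**Figure D3:**
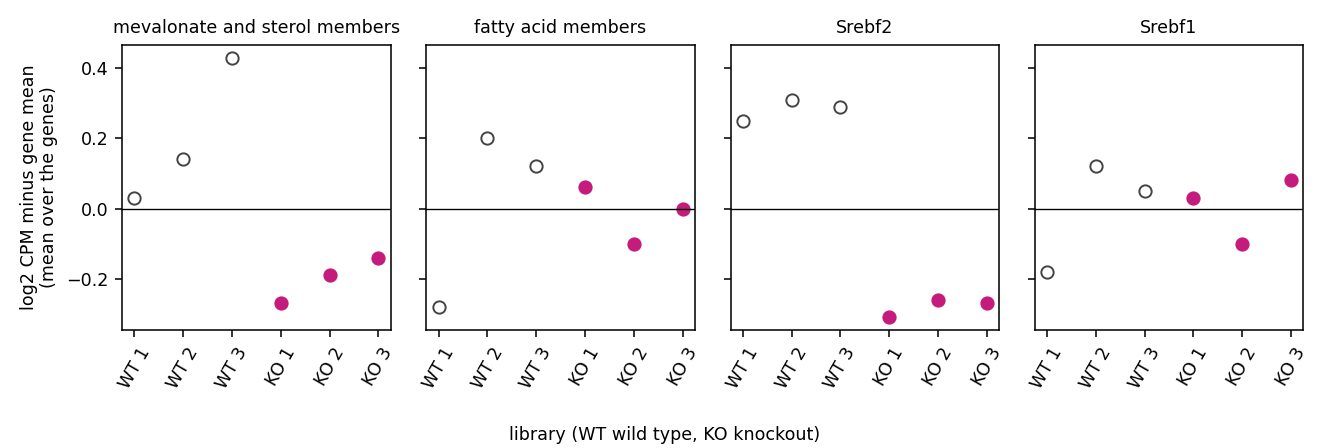
Mean of log2 CPM minus each gene's own mean, per library, for the 19 mevalonate and sterol genes, the 12 fatty acid genes, Srebf2 and Srebf1; open circles are wild type and filled circles knockout. Sterol genes and Srebf2 lie apart between genotypes, with wild-type replicate 3 the highest for the sterol genes (0.43) and wild-type replicate 1 the lowest for the fatty acid genes (−0.28).

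Genes that supply and build fatty acids overlapped between the genotypes throughout. Acly, ATP citrate lyase, which releases acetyl-CoA from citrate, was at 73.0, 115 and 122 CPM in wild type and at 115, 104 and 106.3 CPM in the knockouts (log2 fold change 0.06 ± 0.18 SE). Acss2, which makes acetyl-CoA from acetate, was at 12.5, 15.3 and 17.99 CPM in wild type and at 16.1, 14.8 and 19.2 CPM in the knockouts (0.13 ± 0.17 SE). Acss2 shares 22544 bases with Gss on the other strand, whose mean was 566 counts against 362 for Acss2, so its count is uncertain. Me1, malic enzyme, a source of NADPH, was at 75.1, 105 and 116 CPM in wild type and at 108, 97.8 and 96.2 CPM in the knockouts (0.02 ± 0.16 SE). In each of these genes wild-type replicate 1 was the lowest library.

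Fasn, fatty acid synthase, was at 72.6, 85.0 and 105.9 CPM in wild type and at 88.7, 80.6 and 73.3 CPM in the knockouts (log2 fold change −0.12 ± 0.15 SE). Acacb, the acetyl-CoA carboxylase of the mitochondrial surface, was at 6.72, 9.92 and 6.76 CPM in wild type and at 12.2, 7.90 and 10.3 CPM in the knockouts. Its log2 fold change, 0.38 ± 0.22 SE, was the highest of the members, and the groups overlapped (edgeR adjusted p = 0.778). It was 0.225 without knockout replicate 1 and 0.591 without wild-type replicate 2. For all 5 supply and synthesis genes wild-type replicate 1 was the lowest library, where it was the lowest for 32.5% of all genes. Without it, Acly was at −0.13 and Me1 at −0.14.

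Desaturases and elongases shape the finished chains. Scd2, the stearoyl-CoA desaturase with the higher level of the pair here, was at 80.7, 175 and 190 CPM in wild type and at 142, 112 and 140 CPM in the knockouts, and Scd1 was at 21.1, 34.9 and 28.4 CPM and 39.3, 27.8 and 33.3 CPM. Wild-type replicate 1 was the lowest library for both, and the groups of both overlapped (log2 fold change −0.18 ± 0.28 SE for Scd2 and 0.25 ± 0.20 SE for Scd1). Scd2 exceeded Scd1 per transcript length by 3.39 to 5.92 times in wild type and 3.205 to 3.73 times in knockout. Scd1 was at 0.082 without wild-type replicate 1, 0.435 without wild-type replicate 2 and 0.120 when knockout replicate 1 was left out. Scd2 was at −0.48 on the log2 scale without wild-type replicate 1, and without wild-type replicate 3 it was 0.04. These genes are close relatives with fractional deposited counts, as 17 of 31 members had, so reads may have been shared with related sequences.

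Fads1 and Fads2, the front-end desaturases that make polyunsaturated chains, were at 97.6, 133 and 125 CPM and 45.1, 54.7 and 43.1 CPM in wild type, and at 105, 98.2 and 102 CPM and 48.2, 46.7 and 45.3 CPM in the knockouts. Their groups overlapped (log2 fold change −0.22 ± 0.14 SE and −0.03 ± 0.13 SE). Elovl1, an elongase of very long saturated chains, was at 95.1, 94.3 and 85.7 CPM in wild type and at 74.0, 80.9 and 77.5 CPM in the knockouts. Elovl6, which elongates palmitate, was at 2.73, 4.53 and 2.70 CPM in wild type and at 2.05, 2.604 and 2.42 CPM in the knockouts. These were the 2 fatty acid members whose groups did not overlap (−0.24 ± 0.11 SE for Elovl1 and −0.49 ± 0.29 SE for Elovl6; edgeR adjusted p = 0.778 for each). Without wild-type replicate 2 the value of Elovl6 was −0.19. Elovl5, an elongase of polyunsaturated chains, overlapped (−0.13 ± 0.15 SE).

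**Figure D4:**
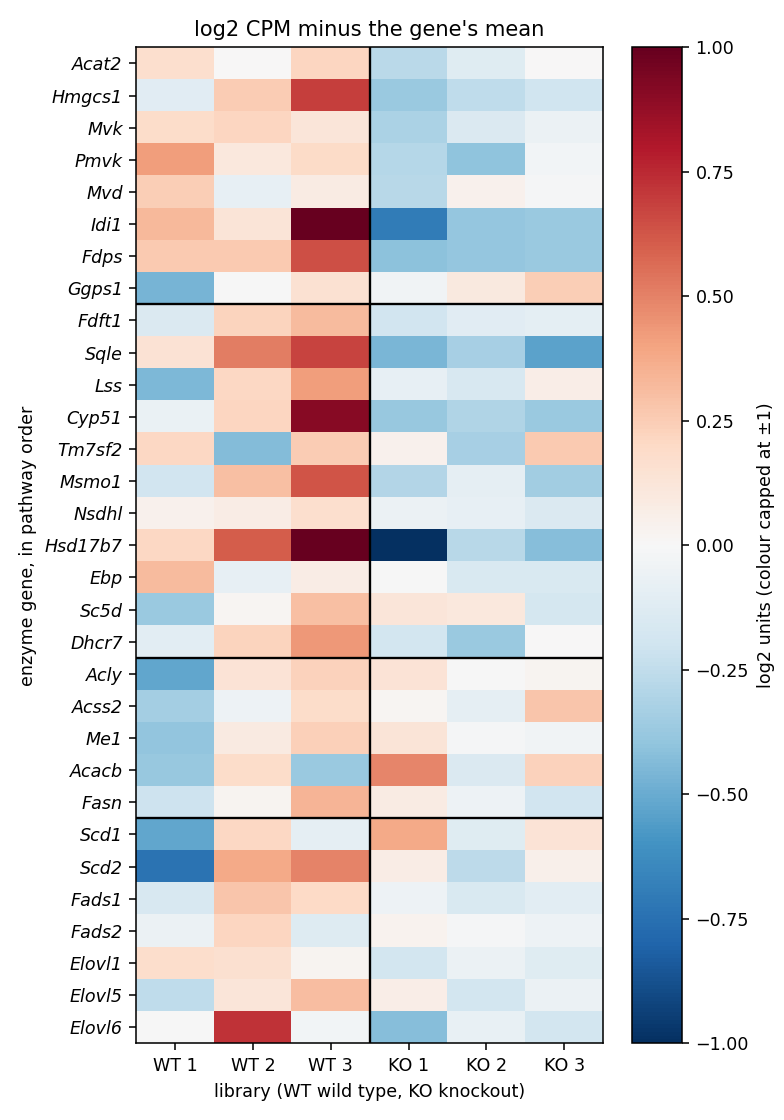
Log2 CPM minus the gene's mean over the 6 libraries, for the 31 genes in pathway order (rows, with lines between the 4 groups of steps) and the 6 libraries (columns); red is above and blue below the gene's mean, and colour is capped at ±1. The red column of wild-type replicate 3 in the sterol rows and the blue column of wild-type replicate 1 in the fatty acid rows stand out, with exceptions such as Elovl1, and most sterol rows are blue in the knockout columns.

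The spread within wild type was wider than within knockout for most members. The coefficient of variation of CPM was larger in wild type for 26 of 31 members (83.9%), where it was larger for 69.3% of all genes tested. Its median over the members was 19.1% in wild type and 9.41% in knockout, against 17.4% and 10.9% over all genes.

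Levels were compared between genes per kilobase of the longest annotated transcript, for the 29 members with a length. Elovl1 was the highest in wild type at 50.6 ± 2.89 CPM per kb, followed by Fads1 at 34.3 ± 5.35, Fads2 at 31.6 ± 4.10 and Me1 at 30.0 ± 6.49 CPM per kb (SD, n = 3), and the last 3 did not differ beyond their spread. Fdps, at 26.0 ± 4.13 CPM per kb, was the highest of the sterol branch with a length in wild type. In knockout Fdps was at 15.05 ± 0.214 CPM per kb, below Ggps1 at 23.0 ± 2.29, whereas in wild type Ggps1 was at 20.2 ± 4.23 CPM per kb. The lowest levels were those of Hsd17b7 (2.18 ± 0.601 CPM per kb), Acacb (0.887 ± 0.209) and Elovl6 (0.558 ± 0.176) in wild type.

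**Figure D5:**
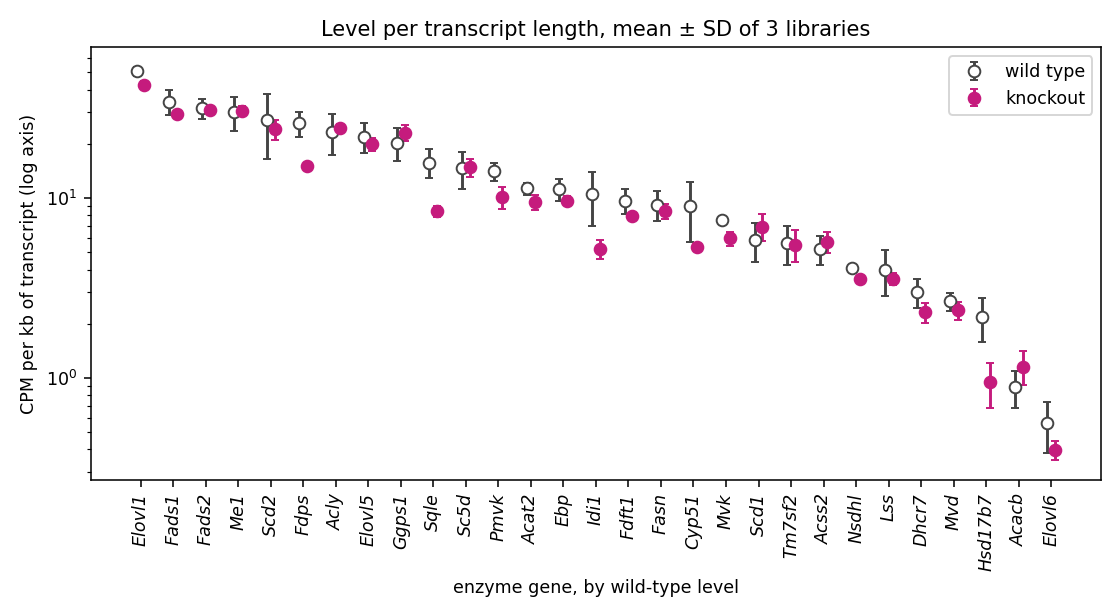
CPM per kilobase of transcript for 29 enzyme genes, ordered by wild-type level, on a log axis; points are means and bars SD of 3 libraries. Elovl1 is the highest in wild type (50.6) and Elovl6 the lowest (0.558), and Fdps, Sqle, Idi1, Cyp51 and Hsd17b7 show the widest gaps between open (wild type) and filled (knockout) points.

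Other genes of lipid metabolism, in 7 lists of 67 genes of which 60 were tested, lay evenly on either side of 0. Of the 60, 29 had a lower and 31 a higher fitted mean in knockout, with a median log2 fold change of 0.00, and edgeR called 0. At an unadjusted p under 0.05 in edgeR, 2 of the 60 were listed as lower, against 3.44% of all genes, and 1 as higher, against 2.85%. Neither count exceeded the all-gene share. Those lower were Srebf2 and Agpat1, and the gene listed as higher was Cpt1a. Cpt1a, which carries fatty acids into mitochondria for oxidation, was at 73.5, 99.3 and 112 CPM in wild type and at 132, 127 and 125 CPM in the knockouts (log2 fold change 0.43 ± 0.16 SE, edgeR adjusted p = 0.775). Agpat1, an acyltransferase of glyceride synthesis, was at 56.7, 45.7 and 41.3 CPM in wild type and at 34.7, 37.9 and 37.5 CPM in the knockouts (−0.38 ± 0.14 SE, edgeR adjusted p = 0.775). The groups of both genes lay apart. Of the prenyl transfer and other isoprenoid enzymes, 8 of 11 tested had a lower fitted mean (median −0.10), with 0 listed at an unadjusted p under 0.05. The precursor and NADPH supply genes had 5 of 9 lower (median −0.04), other desaturation and elongation genes 7 of 10 (−0.07), esterification genes 3 of 9 (0.07), mitochondrial fatty acid synthesis genes 1 of 5 (0.15) and fatty acid oxidation genes 3 of 10 (0.05).

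Markers of other cells that make lipid were followed in the same libraries. The 5 of 12 adipocyte markers with a row summed to 268.9 to 364.7 CPM in wild type and 326.8 to 399.2 CPM in the knockouts, mostly Plin4 (173 to 291 CPM in wild type, 245 to 341 CPM in the knockouts), and Car3 was between 0 and 1.07 CPM. The remaining adipocyte markers were not analysed here. Wild-type replicate 1 had the lowest adipocyte sum and the lowest fatty acid branch score. The adipocyte markers did not move together there. Plin4 (173 CPM) and Lipe (4.58 CPM) were lowest in that library, but Fabp4 (74.5 CPM) and Cidea (17.2 CPM) were highest in it. The part of fat cells in the fatty acid score was not tested. Nerve and Schwann markers (4 of 8 with a row) summed to 615.9 to 720.7 CPM in wild type and 647.4 to 661.9 CPM in the knockouts, nearly all of it Ncam1. Endothelial markers summed to 37.27 to 39.73 CPM in wild type and 36.54 to 48.55 CPM in the knockouts, mostly Pecam1. In the same order, macrophage markers summed to 4.875 to 10.26 and 2.618 to 9.52 CPM, and adventitial fibroblast markers to 155.0 to 205.7 and 142.2 to 203.0 CPM. Of the endothelial markers tested, 0 had a lower and 5 a higher fitted mean in knockout, against 3 and 0 for nerve and Schwann markers. These counts were 2 and 2 for adipocyte and for macrophage markers, and 5 and 3 for adventitial fibroblast markers. In these lists 0 markers had an unadjusted p under 0.05 in edgeR. The 8 smooth muscle markers summed to 43656.8 to 50149.8 CPM in wild type and 45384.8 to 46528.0 CPM in the knockouts. All 6 sums overlapped between genotypes, and in bulk libraries fewer cells of a type and less RNA per cell cannot be told apart.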

How the data were processed

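Bulk RNA libraries of aortic smooth muscle cells, 3 per genotype, were analysed. Per the labels' protocols, RNA came from frozen cells by Trizol and libraries were made with the Illumina TruSeq RNA kit. Alignment and analysis tools in the submitters' processing notes are STAR 2.6 and DESeq2, with build mm10; the counting tool, annotation and strandedness are not stated there. The authors deposited 1 table of expected counts, a unit read from the values (65.4% within 0.01 of a whole number).

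Counts were rounded, filtered with filterByExpr, scaled with TMM and tested with edgeR 4.0.16 (glmQLFit and glmQLFTest, robust=TRUE, R 4.3.3). Tests were 2-sided, p-values of 15185 genes were adjusted by Benjamini-Hochberg, and the threshold was 0.05. The standard error is the fold change over the square root of F. DESeq2 1.42.0 (alpha 0.05) and limma 3.58.1 (voom) were alternatives, with other scalings, filters, robust=FALSE, a replicate block and each library left out. Scores used log2 CPM with a prior count of 2. The edgeR step was tested on simulated data. Gene ends are the deposited stop minus 1. Transcript lengths and 3′ UTR sequences came from GENCODE vM1, a transcript set of another build, and promoter windows and the microRNA from RefSeq (GRCm38.p6).

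The members and lists were chosen with earlier results of these data known, and no p was adjusted over the members alone. Every member could be named; values in each library were due for members with an unadjusted p under 0.05 or no overlap and for the ends of each branch, and from each other list up to 3 genes with such a p, plus Srebf1 and Srebf2. Library values of further members were added after they were seen.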

Additional observations from a re-analysis of the deposited data

How the results depend on the processing

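Counts and medians of the members kept their direction under the other scalings, filters, limma voom and robust=FALSE. DESeq2 called 66 genes, 4 of them members, against 0 and 0 in edgeR. With each library left out in turn, edgeR called 0 to 9 genes and 0 to 1 members (1 without wild-type replicate 1), listed 7 to 16 members as lower at an unadjusted p under 0.05 (2.24% to 4.15% of all genes), left 11 to 19 members without overlap (10.6% to 14.7% of all genes), and gave the mevalonate and sterol members a median log2 fold change of −0.401 to −0.245, the latter without wild-type replicate 3. The fatty acid median was between −0.178 and 0.034. DESeq2 with a library left out, chosen after seeing the data, called 7, 3 and 0 members without wild-type replicates 1, 2 and 3. It called 1, 1 and 0 without knockout replicates 1, 2 and 3. These fits have fewer samples, their share of calls over all genes was not examined, and the cause was not tested further. Library totals turned Tm7sf2 to 0.012 and Fads2 to 0.016. Near-level members changed sign when a library was left out, over −0.376 to 0.022 for Lss, −0.210 to 0.119 for Tm7sf2, −0.147 to 0.184 for Sc5d, −0.133 to 0.200 for Acly, −0.140 to 0.156 for Me1, −0.242 to 0.033 for Fasn, −0.475 to 0.036 for Scd2 and −0.096 to 0.090 for Fads2.

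The labels do not say that a replicate number marks a shared animal, litter or day. Deviations of same-numbered libraries from their group means correlated at −0.27, −0.177 and −0.084 across genes. Libraries did not correlate best with their own number. Deviations from a mean of 3 libraries are tied to each other, so these correlations cannot settle whether same-numbered libraries shared an origin. The replicate block left 0 genes called in edgeR. In that fit 8 members were listed as lower at an unadjusted p under 0.05, where 315 of all genes were, against 522 without the block. A lower fitted mean was found for 24 members, and the median log2 fold change over all genes was 0.005.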
